A study of Mus musculus with 3 samples.

Results

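The genes of the ubiquitin-proteasome system examined here are those in the gene assignments of an Nkx2.2 ChIP-seq region table whose symbol starts with Psma, Psmb, Psmc, Psmd or Ube2, or with Usp and a digit. This name rule, which uses no measured value, found 101 genes with 219 regions among 37271 regions in all. They are 14 genes of the proteasome core with 28 regions, 19 Psmc and Psmd genes, those of its regulatory particle and Psmc3ip, with 32 regions, 27 ubiquitin-conjugating enzyme genes with 64 regions and 41 Usp deubiquitinase genes with 95 regions. RefSeq (GRCm38.p6) lists 133 protein-coding symbols of this form, and 99 of them (74.4%) had a region, beside 44.7% of all 21900 protein-coding genes. Both shares count only names equal to a current symbol. Such names are 9782 of all 14473 gene names with a region and 99 of the 101 member names. The 44.7% may thus be understated more by older names. The remaining 2 member names, Ube2d2 and Usp52, are older symbols. The other 34 symbols, among them Psma7, Psmb4, Psmb8, Psmb9, Psmd6, Ube2j1, Usp2, Usp4, Usp8 and Usp34, had no region under that name in the table analysed here, and 5 of the 34 have regions under an older name. The rule goes by name, so it takes in Psmc3ip, a meiotic recombination factor, Usp6nl, a GTPase-activating protein for Rab GTPases, and Usp52, the poly(A) nuclease subunit now called Pan2.

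Nkx2.2 is a homeodomain transcription factor of the oligodendrocyte lineage, and the series mapped its genomic binding in 2 states of that lineage. Oligodendrocytes (OL), which no longer divide, were obtained by withdrawing the mitogen PDGF-AA from progenitors and giving the thyroid hormone T3 (40 ng/mL) for 48 h. Oligodendrocyte progenitor cells (OPC), still dividing, were kept with PDGF-AA (10 ng/mL). The medium of both states held NT-3 (1 ng/mL) and CNTF (10 ng/mL). Progenitors were captured by PDGFRA antibody out of dissociated cortices of C57BL/6 mice aged 7 postnatal days, and both states were raised in parallel in SATO serum-free medium with B-27 and SM1 supplements. Each state has 1 ChIP library made with a monoclonal Nkx2.2 antibody from 1.5e7 cells, and an input library of both states was not analysed here. The number of animals is not given, both states are culture models, and the table holds no RNA, so cell identity could not be checked against marker expression. Binding in fewer cells and weaker binding per cell cannot be told apart in such libraries.

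The 26S proteasome degrades proteins tagged with ubiquitin. Its barrel-shaped 20S core holds the proteolytic sites inside rings of alpha (Psma) and beta (Psmb) subunits. The 19S regulatory particle caps the barrel, where Psmc ATPases unfold the substrate and Psmd subunits recognise it and remove its ubiquitin. Ubiquitin reaches substrates through E1 activating enzymes, E2 conjugating enzymes (Ube2) and E3 ligases, and deubiquitinases such as the Usp proteases take it off again. Cyclins and many other short-lived regulators are degraded by this route, in dividing progenitors as in other cells.

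Values are the deposited average signal of a region in each ChIP library, a non-negative coverage measure whose scaling between libraries is not stated, and whose read depth is unknown. The ratio is log2((OL + 1) / (OPC + 1)), with a pseudocount of 1 that understates the ratio of weak regions, and a ratio of 1 or more, or -1 or less, is past the threshold of a 2-fold change. With 1 library for each state no test was possible, and every difference below has no replicate check. A start region is one whose middle lies within 1 kb of the member gene's start, and a call is the authors' mark that a library holds a peak there. The values over all regions include the members. Of the 219 member regions, 120 were assigned to member genes alone and the others also to a neighbouring gene. Over all regions the median signal was 5.0 in OL against 3.0 in OPC, so OL was the higher library over the table as a whole. Coordinates are those of the deposited table on mm9, and whether its starts count from 0 or 1 is not stated.

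Start regions of the system recur across all 4 roles, and the promoters of the strongest start region of each role with a RefSeq promoter are shown here to let the sequence under them be read. They run 5′ to 3′ from 250 bases before the gene start to 50 after it, on the GRCm38.p6 build. Capitals mark matches to the NK2 homeodomain core AAGTG or its reverse complement CACTT, and to the antioxidant response element TGACNNNGC, the binding site of the Nrf factors that drive proteasome genes.
Psmb5: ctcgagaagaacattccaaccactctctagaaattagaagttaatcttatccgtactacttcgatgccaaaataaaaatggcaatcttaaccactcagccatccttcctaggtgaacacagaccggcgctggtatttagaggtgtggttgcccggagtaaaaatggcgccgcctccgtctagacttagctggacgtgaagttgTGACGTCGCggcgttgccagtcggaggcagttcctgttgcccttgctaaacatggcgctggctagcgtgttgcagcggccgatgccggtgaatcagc
Psmd1: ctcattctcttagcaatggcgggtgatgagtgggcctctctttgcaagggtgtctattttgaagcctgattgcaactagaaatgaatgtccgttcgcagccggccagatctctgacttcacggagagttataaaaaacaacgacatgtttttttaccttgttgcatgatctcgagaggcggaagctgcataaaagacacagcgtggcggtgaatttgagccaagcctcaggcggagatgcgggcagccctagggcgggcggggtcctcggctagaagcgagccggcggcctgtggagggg
Ube2f: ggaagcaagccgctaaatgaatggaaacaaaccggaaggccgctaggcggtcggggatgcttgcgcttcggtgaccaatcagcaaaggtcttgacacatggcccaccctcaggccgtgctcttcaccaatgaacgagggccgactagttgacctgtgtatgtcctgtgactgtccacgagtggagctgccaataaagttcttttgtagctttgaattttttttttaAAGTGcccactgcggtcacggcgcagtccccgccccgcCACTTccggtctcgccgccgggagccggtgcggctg
Usp30: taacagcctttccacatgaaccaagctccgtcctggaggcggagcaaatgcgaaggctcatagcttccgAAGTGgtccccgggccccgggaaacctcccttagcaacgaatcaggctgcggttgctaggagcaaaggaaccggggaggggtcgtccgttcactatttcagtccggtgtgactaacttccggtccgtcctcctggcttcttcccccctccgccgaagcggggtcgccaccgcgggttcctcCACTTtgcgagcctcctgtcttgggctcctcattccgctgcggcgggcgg
The Psmb5 promoter (chromosome 14, minus strand) holds 1 antioxidant response element, starting 47 bases before the gene start, and no NK2 core. The Psmd1 promoter (chromosome 1, plus strand) holds neither motif. The Ube2f promoter (chromosome 1, plus strand) and the Usp30 promoter (chromosome 5, plus strand) hold 2 NK2 cores each, 1 on each strand; the table lists Ube2f with 2 starts, of which the one farther upstream is printed. The regions at these starts had average signals of 12.8 in OL against 5.56 in OPC at Psmb5, 18.0 in OL against 9.88 in OPC at Psmd1, 15.2 in OL against 9.25 in OPC at Ube2f, and 8.77 in OL against 4.50 in OPC at Usp30. All 4 regions were called in both libraries.

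Across the set, an NK2 core on either strand occurred in 39.1% of the promoters of members with a start region (27 of 69 promoters, from 58 genes). It occurred in 46.4% of the 32851 RefSeq promoters of the same length and in 42.8% of the promoters of all genes with a start region. By role the share was 30.8% for Psm genes, 43.5% for Ube2 genes and 45% for Usp genes with a start region. The longer Nkx2-2 motif TTGAGTGG was in 0 of the 69 member promoters, which allows a share of up to 5.21% (exact Clopper-Pearson 95% bound), and in 0.791% of all promoters. The antioxidant response element was in 15.9% of the promoters of members with a start region, in 21.6% of those of members without one, in 13.9% of those of all genes with a start region and in 12.4% of all promoters. Promoters of members with a start region were 63.4% G and C, against 61.3% for all genes with a start region and 53.8% for all promoters. A match describes letters in this window only.

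Nkx2.2 regions of the system were mostly OL calls. Of the 219 member regions, 92.2% were called in OL, against 85.3% of all regions, and 32.0% were called in OPC, against 38.6% of all regions. OL alone held the call at 149 of them (68.0%; all regions 61.4%), both libraries at 53 (24.2%; all regions 23.8%) and OPC alone at 17 (7.76%; all regions 14.7%). By gene, 96 of the 101 had a region called in OL, 60 had one called in OPC, and 55 had both. These are 95% of the member genes in OL, 59.4% in OPC and 54.5% in both, near the shares over all 14473 genes with a region, 94.8% in OL, 57.3% in OPC and 52.0% in both.

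The signal was higher in OL at 192 of the 219 regions (87.7%; all regions 77.4%). The median ratio was 0.69 (95% interval over regions 0.61 to 0.80), beside 0.74 over all regions. A ratio of 1 or more was reached at 68 member regions (31.1%; all regions 37.5%) and a ratio of -1 or less at 6 (2.74%; all regions 7.03%). These counts depend on how the libraries are scaled. With the median of regions called in both set to 0, a shift of 0.24, they were 51 and 9. Those are 23.3% and 4.11% of member regions, against 27.2% and 10.1% of all regions. With the median of all regions set to 0, a shift of 0.74, they were 23 and 21. Those are 10.5% and 9.59% of member regions, against 13.2% and 17.5% of all regions.

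**Figure D1:**
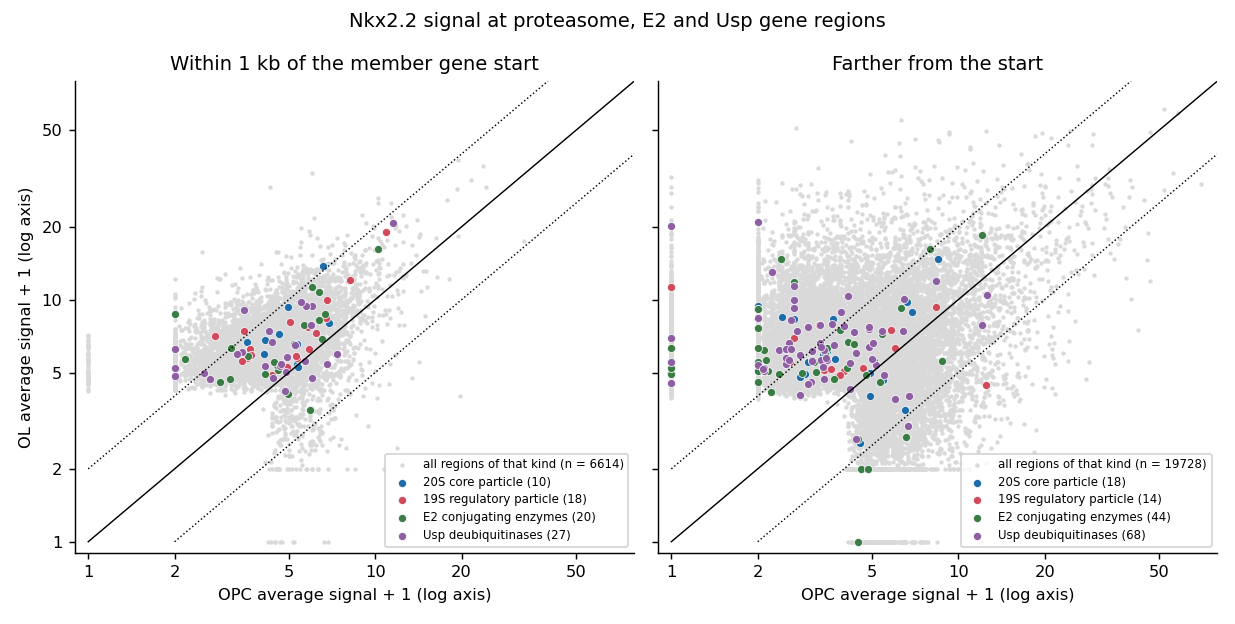
Average signal plus 1 (deposited units, log axes) of each member region in OL (y axis) against OPC (x axis), coloured by role, at the member gene start (left) and farther away (right), over all regions of that kind in grey. The solid line marks equal signal and the dotted lines a ratio of 1 and -1; most member regions lie above the solid line, and those farther from the start spread more widely, with 9 listed at 0 in OPC on the left edge.

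The position of a region divided the set. Of the 219 regions, 75 lay at the start of a member gene, 74 lay inside the gene past 1 kb, 31 lay farther upstream and 39 downstream. The ratio had a median of 0.56 (95% interval 0.32 to 0.67) at starts, beside 0.60 over all 6614 promoter regions. Inside genes the median was 1.08 (95% interval 0.90 to 1.27), beside 0.86 over all 15661 in-gene regions. That interval treats regions as independent, though Ube2e2 holds 6 of them and Ube2h, Usp29 and Usp6nl hold 5 each. The upstream regions had a median of 0.58 and the downstream ones 0.69. Members were placed here by their own start and the other regions by any start; by any start, 83 member regions lay inside a gene, also with a median of 1.08.

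Calls divided in the same way. At starts 33 regions were called in both libraries (44%; all promoter regions 33.5%), 39 in OL only (52.0%; all promoter regions 59.4%) and 3 in OPC only (4%; all promoter regions 7.08%). Inside genes 6 were called in both (8.11%; all in-gene regions 21.6%), 60 in OL only (81.1%; all in-gene regions 63.6%) and 8 in OPC only (10.8%; all in-gene regions 14.8%). The threshold in the OL direction was passed at 10 start regions (13.3%; all promoter regions 19.8%) and at 41 in-gene regions (55.4%; all in-gene regions 43.4%). In the OPC direction it was passed at 0 start regions (all promoter regions 1.54%) and at 3 in-gene regions (4.05%; all in-gene regions 7.19%). With the median of all regions set to 0, start regions past the threshold were 1 toward OL (1.33%) and 5 toward OPC (6.67%). All promoter regions then had 1.87% toward OL and 7.05% toward OPC. In-gene regions were 15 toward OL (20.3%) and 10 toward OPC (13.5%), against 16.3% and 18.1% of all in-gene regions. An OL-only call does not by itself mean a large difference, since 13 of the 39 OL-only start regions had a ratio between -0.5 and 0.5.

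**Figure D2:**
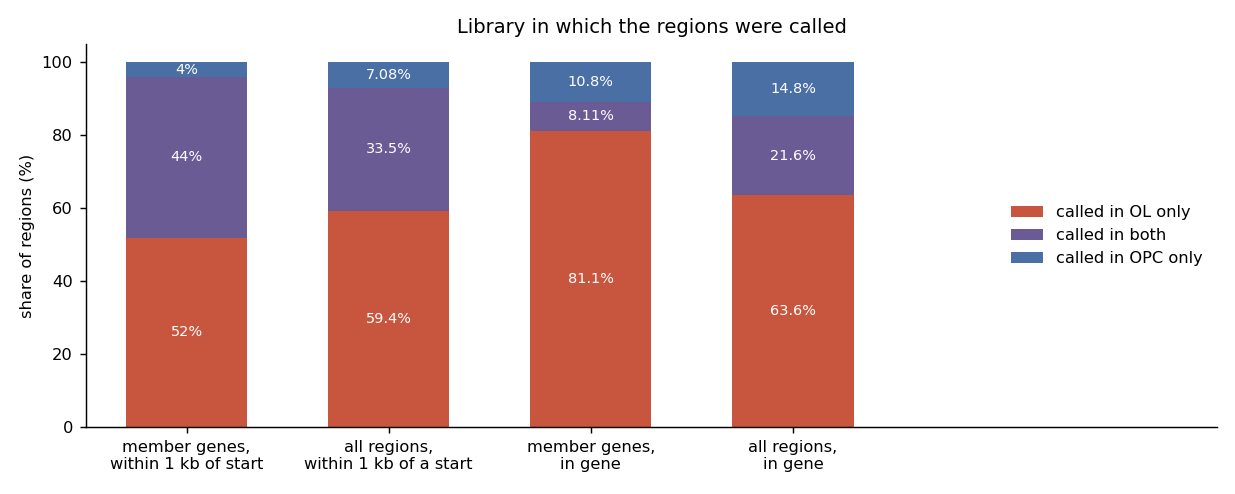
Share of regions (%) called in OL only, in both libraries or in OPC only, for member start regions, all promoter regions, member in-gene regions and all in-gene regions. Calls in both make up 44% of member start regions and 8.11% of member in-gene regions.

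**Figure D3:**
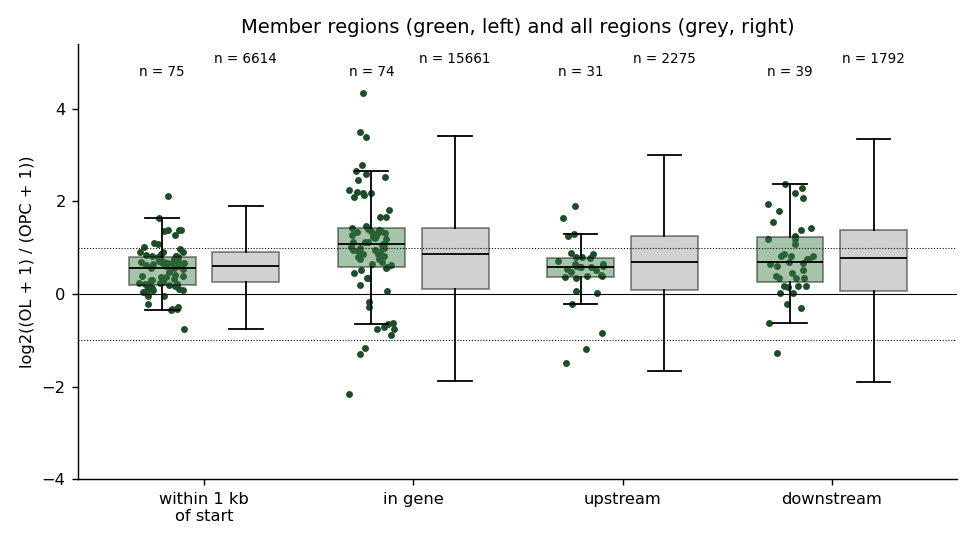
Ratio of OL over OPC signal (log2, pseudocount 1) of member regions (green boxes, with 1 point per region) and of all regions (grey boxes) by position; boxes span the quartiles with a line at the median, and whiskers reach the farthest value within 1.5 box lengths. Member in-gene regions have a median of 1.08, beside 0.86 for all in-gene regions, and no member start region falls below -1.

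Signal at starts also ran in parallel between the libraries. Across the 75 start regions the Spearman correlation of OL with OPC signal was 0.48, beside 0.33 over all promoter regions. Across the 144 other member regions it was -0.04, beside 0.02 over all 19728 regions with a gene and away from every start. These values describe regions that share 2 libraries and that entered the table only if called in at least 1 of them. CpG islands, GC-rich stretches found at most housekeeping promoters, overlapped 71 of the 75 start regions (94.7%; all promoter regions 83.3%), the exceptions being Psmb10, Psmb3, Psmb6 and Psmd10. Of these 75 regions 60 cover the start itself, and 9 also lie within 1 kb of the start of a neighbouring gene, such as Dnajc2 beside Psmc2, Sirt3 beside Psmd13, Atg4a beside Psmd10 and Cdca3 beside Usp5. The signal there cannot be given to 1 gene of the pair.

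Among the roles, start regions were most common in the Psmc and Psmd genes of the 19S regulatory particle, Psmc3ip included, where 18 of 19 genes (94.7%) had one. They were found in 10 of 14 genes of the 20S core (71.4%), 18 of 27 E2 genes (66.7%) and 27 of 41 Usp genes (65.9%). Over all 14473 genes with a region the share was 48.9%.

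In the 20S core, all 14 genes with a region had an OL call (all genes 94.8%) and 7 had an OPC call (all genes 57.3%). The beta subunits carry the proteolytic sites, and the start of Psmb5, the chymotrypsin-like one, had 12.8 in OL against 5.56 in OPC (chr14:55236575-55237424), with a ratio of 1.07. Psmb6, the caspase-like subunit, had 4.28 in OL against 4.39 in OPC at its start, and Psmb7, the trypsin-like subunit, had 8.36 in OL against 3.95 in OPC. Of the starts of these 3 catalytic subunits, that of Psmb5 stood highest in both libraries and that of Psmb6 showed nearly equal signal. Psmb10, the immunoproteasome counterpart of Psmb7, had 6.20 in OL against 3.61 in OPC, called in OL only.

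The structural beta subunit Psmb2 had a start signal of 5.83 in OL against 3.14 in OPC. Psmb3, of the same kind, had 7.04 in OL against 5.90 in OPC. Psmb1, another structural beta subunit, had no start region, and its 1 region lay 1598 bp upstream, with 13.8 in OL against 7.5 in OPC, where it is shared with Tbp, the gene of the TATA-binding protein. The alpha subunits form the gated outer rings. Their start signals were 5.58 in OL against 4.33 in OPC at Psma1, 4.94 in OL against 3.09 in OPC at Psma3, 4.43 in OL against 4.33 in OPC at Psma5, and 5.69 in OL against 2.58 in OPC at Psma6. The OL values of these alpha genes stayed within a narrow band, and the ratio ran between 0.03 at Psma5 and 0.90 at Psma6.

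Core genes also had regions away from the start. Psmb6 had 7.33 in OL against 1.67 in OPC 6552 bp upstream, a ratio of 1.64, within 1 kb of the start of C730027E14Rik. Psma5 had 7.32 in OL against 2.67 in OPC 31259 bp past its start, a ratio of 1.18, in a region also assigned to Sort1. Psma3 had an in-gene region with 8.45 in OL against 1.00 in OPC. Psma6 had a region 9111 bp upstream with the opposite order, 1.56 in OL against 3.56 in OPC, called in OPC only. Psmb7 had 7.5 in OL against 1.43 in OPC 19493 bp into the gene, and 8.79 in OL against 5.64 in OPC at 21921 bp. At 34445 bp the order turned, with 2.50 in OL against 5.50 in OPC. Psma8, the testis-specific alpha subunit, had 1 weak in-gene region with 3.8 in OL against 1.82 in OPC. Psma2 and Psma4 each had 1 region away from the start, with 4.69 in OL against 2.71 in OPC at Psma2, and 7.90 in OL against 5.90 in OPC at Psma4. The Psma2 region lies within 1 kb of the start of AW209491. The Psma4 region is also assigned to C630028N24Rik and AY074887.

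Of the Psmc and Psmd genes, those of the 19S particle and Psmc3ip, all 19 had an OL call (all genes 94.8%). An OPC call was found at 11 of them (57.9%, against 57.3% of all genes). All 18 start regions had higher deposited signal in OL (all promoter regions 86.4%). The median ratio over all 32 regions, 0.46, turned to -0.27 with the median of all regions of the table set to 0. The strongest start was at Psmd1, a scaffold subunit of the base (chr1:87960667-87961495), with 18.0 in OL against 9.88 in OPC. Its highest signals were 69 in OL against 37 in OPC. Psmd2, the other large scaffold subunit, had 7.07 in OL against 4.06 in OPC. Both scaffold starts were called in both libraries. Of the lid, Psmd12 had 11.1 in OL against 7.18 in OPC, and Psmd11 had 8.96 in OL against 5.77 in OPC. The Psmd12 start was called in OL only although its OPC signal stood above the median of regions called in OPC, 5.12.

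The Psmc genes encode the ATPase ring. Start signals were 7.43 in OL against 5.73 in OPC at Psmc1, 4.74 in OL against 2.56 in OPC at Psmc2, and 6.43 in OL against 2.48 in OPC at Psmc3. They were 4.71 in OL against 4.33 in OPC at Psmc4, 5.27 in OL against 2.65 in OPC at Psmc5, and 6.27 in OL against 5.20 in OPC at Psmc6. The start of Psmc2 is shared with Dnajc2 and that of Psmc5 with Ftsj3. Only Psmc3 passed the threshold among them, with a ratio of 1.10, and the start of every ATPase gene had a region called in OL (all promoter regions 92.9%). Psmc6 also had a region 4143 bp upstream (chr14:45945161-45945551) with 3.46 in OL against 11.5 in OPC and a ratio of -1.49. That region, also assigned to Ero1l, is the strongest OPC-only region of the proteasome genes. It stands beside a Psmc6 start region that was called in OL only. Another Psmc6 region, 21869 bp past the gene start and within 1 kb of the start of Styx, had 4.50 in OL against 1.60 in OPC. Its ratio was 1.08.

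The ubiquitin-handling subunits had moderate start signals. Psmd4, a ubiquitin receptor, had 4.89 in OL against 2.70 in OPC, and Psmd14, the deubiquitinase of the lid, had 4.56 in OL against 2.43 in OPC. Psmd14 had a stronger region 35922 bp into the gene, which had 10.25 in OL and was listed at 0 in OPC. Psmd5, a chaperone of base assembly, had 6.09 in OL against 1.76 in OPC, the largest ratio of the proteasome starts at 1.36. Psmd10, another such chaperone, had 3.89 in OL against 3.37 in OPC. A Psmd10 region 6988 bp upstream, also assigned to Atg4a, had 6.84 in OL against 2.27 in OPC, a ratio of 1.26. Pairs were nearly equal at 3 lid subunits, with 5.24 in OL against 4.90 in OPC at Psmd3, 4.26 in OL against 3.93 in OPC at Psmd8, and 4.84 in OL against 4.29 in OPC at Psmd13. Psmd7, also of the lid, had only a downstream region with 3.90 in OL against 2.86 in OPC.

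Over the 28 start regions of Psm genes, Psmc3ip included, the OL signal ran between 3.89 and 18.0 with a median of 5.76, and the OPC signal ran between 1.76 and 9.88 with a median of 4.17. The ranges overlap, yet 27 of the 28 regions had the higher value in OL (96.4%; all promoter regions 86.4%), with a median ratio of 0.56 (95% interval 0.23 to 0.70). All 28 were called in OL, and 14 were also called in OPC. Of all promoter regions, 92.9% were called in OL, 40.6% in OPC and 33.5% in both. The threshold in the OL direction was passed by 3 of the 28 (10.7%; all promoter regions 19.8%), at Psmb5, Psmc3 and Psmd5.

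**Figure D4:**
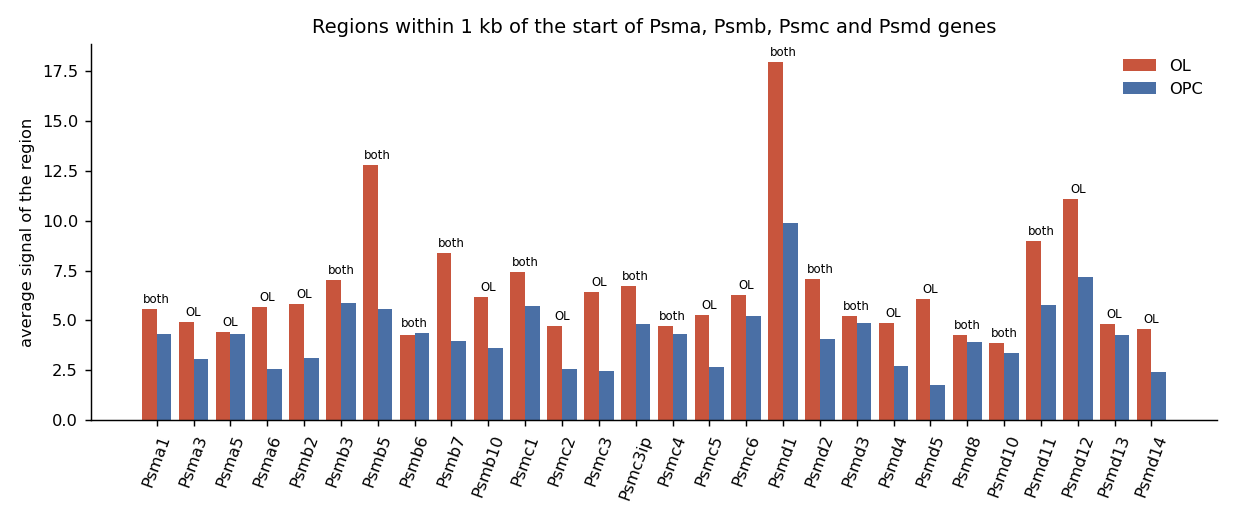
Average signal (deposited units) in OL (left bar) and OPC (right bar) of each region within 1 kb of the start of a Psma, Psmb, Psmc or Psmd gene, with the library of the call above the bars. Psmd1, with 18.0 in OL against 9.88 in OPC, is the tallest pair, and Psmb6 is the gene with higher signal in OPC.

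Of the 27 E2 genes, 26 had an OL call (96.3%; all genes 94.8%) and 16 an OPC call (59.3%; all genes 57.3%). Start regions had a median ratio of 0.43 and the other E2 regions 0.84. The highest start was that of Ube2f (chr1:93146441-93147316), which conjugates the ubiquitin-like protein Nedd8, with 15.2 in OL against 9.25 in OPC. Ube2d3, an E2 that works with many ligases, had 10.3 in OL against 5.03 in OPC, and Ube2z, which is charged by the E1 enzyme Uba6, had 9.78 in OL against 5.39 in OPC. Ube2n, which builds lysine-63 chains, had 7.25 in OL against 5.36 in OPC at its start. These 4 start regions were called in both libraries.

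Ube2c and Ube2s, the E2 enzymes of the anaphase-promoting complex that drives exit from mitosis, differed at their starts. Ube2c had 2.50 in OL against 4.91 in OPC, called in OPC only, with a ratio of -0.76, the lowest of all member start regions. Ube2s had 3.93 in OL against 3.14 in OPC, called in OL only. Ube2s also had a region 9513 bp upstream with 17.5 in OL against 11.1 in OPC, called in both. That region, also assigned to D430041B17Rik, was the strongest of all E2 regions. Ube2r2, an E2 of cullin-based ligases, had 3.07 in OL against 3.96 in OPC at its start.

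E2 starts past the threshold were those of Ube2e3, Ube2g1 (4.67 in OL against 1.17 in OPC) and Ube2e2 (5.33 in OL against 2.14 in OPC). They are 3 of 20 E2 start regions (15.0%; all promoter regions 19.8%). Ube2e3 had 7.73 in OL against 1.00 in OPC 366 bp upstream of its start, a ratio of 2.13. A separate region 157 bp inside the gene had 4.14 in OL against 3.57 in OPC, and a region 20970 bp inside was listed at 0 in OL with 3.46 in OPC. The gene thus had regions past the threshold in both directions.

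Ube2e2, whose product attaches ubiquitin with a broad set of ligases, and Ube2h, the E2 of the CTLH ligase, had 8 regions each. All 16 of these regions were called in OL only (all regions 61.4%), and they were listed because of that OL call. At Ube2e2 the regions inside the gene, 72667 to 195541 bp from the start, had 3.14 to 13.7 in OL against 0 to 1.42 in OPC. The strongest (chr14:19563652-19564485) had 13.7 in OL against 1.42 in OPC, a ratio of 2.60. The Ube2e2 region downstream of the gene had 4.60 in OL against 4.07 in OPC. At Ube2h the 8 regions had 3.59 to 5.33 in OL against 1.00 to 3.56 in OPC. Ube2v1, the partner of Ube2n, had 10.8 in OL against 1.67 in OPC at a region 2265 bp inside the gene, and 5.54 in OL against 4.21 in OPC at its start.

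Of the 6 member regions past the threshold toward OPC, 4 were assigned to E2 genes, including the in-gene region of Ube2e3. These 4 are 6.25% of the 64 E2 regions, beside 7.03% of all regions. Ube2g2, the E2 of degradation at the endoplasmic reticulum, had 1.70 in OL against 5.59 in OPC 1018 bp inside the gene, in a region also assigned to its neighbour, and 4.83 in OL against 2.61 in OPC at its start. Ube2b, a Rad6 homologue in DNA repair, had 1.00 in OL against 3.57 in OPC 3126 bp upstream, within 1 kb of the start of Cdkl3. Ube2q1 had 1.00 in OL against 3.86 in OPC downstream of the gene. Ube2j2, which acts at the endoplasmic reticulum membrane, had 4.58 in OL against 7.78 in OPC at an in-gene region called in both.

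Of the 41 Usp genes, 37 had an OL call (90.2%; all genes 94.8%) and 26 an OPC call (63.4%; all genes 57.3%). Start regions had a median ratio of 0.61 and the other Usp regions 0.95. The strongest start was that of Usp5, which disassembles free ubiquitin chains (chr6:124778701-124780049), with 19.7 in OL against 10.6 in OPC and highest signals of 55 in OL against 38 in OPC. It is shared with Cdca3. Usp30, which opposes mitophagy at the mitochondrial outer membrane, had 8.77 in OL against 4.50 in OPC. Usp22, the histone deubiquitinase of the SAGA complex, had 8.41 in OL against 4.76 in OPC. Usp1, which acts on PCNA and FANCD2 in DNA repair, had 8.39 in OL against 5.03 in OPC. All 4 were called in both libraries, with OL higher in each.

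Usp7, which stabilises Mdm2 and p53, had 5.24 in OL against 1.00 in OPC 724 bp upstream of its start, the largest ratio of the Usp starts at 1.64. The other Usp starts past the threshold had 3.85 in OL against 1.00 in OPC at Usp13, 4.23 in OL against 1.00 in OPC at Usp25, and 8.07 in OL against 2.50 in OPC at Usp42. With Usp7 these are 4 of 27 Usp start regions (14.8%; all promoter regions 19.8%). Usp14, the deubiquitinase bound to the proteasome itself, was among 5 Usp starts with higher OPC signal, with 3.18 in OL against 3.85 in OPC and an OPC call only. The others were Usp11, Usp12, Usp16 and Usp36, with ratios of -0.31, -0.34, -0.03 and -0.31. None of these 5 passed the threshold. OL signal was higher at 81.5% of Usp starts, beside 86.4% of all promoter regions.

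The largest differences at Usp genes lay inside the genes. Usp24 had 20.0 in OL against 1.00 in OPC 70156 bp from its start (chr4:106058318-106058681), a ratio of 3.39 and the highest OL signal of any member region. Usp37, which stabilises cyclin A, had 19.2 in OL and was listed at 0 in OPC 65888 bp inside the gene (chr1:74524756-74525188). Another Usp37 region, 1555 bp from its start and also within 1 kb of the start of Plcd4, had 6.88 in OL against 11.1 in OPC and was called in both. These 2 regions of the gene differed in opposite directions. Usp25 had 9.41 in OL against 11.6 in OPC 85330 bp inside the gene, the highest OPC signal of all member regions.

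Usp29, an imprinted gene beside Peg3, had 8 regions with 2.00 to 9.04 in OL against 1.5 to 5.68 in OPC. Its highest OL value, 9.04 with 5.44 in OPC, lay 2141 bp upstream, in a region also assigned to Peg3 and inside that gene. The region 3238 bp upstream was likewise inside Peg3, and the Usp29 start region also lies within 1 kb of the Peg3 start. Inside Usp29 the order turned at 195637 bp, with 2.00 in OL against 5.68 in OPC, and at 206493 bp, with 3.89 in OL against 4.50 in OPC. Usp47 had 5 regions with 4.93 to 6.86 in OL against 1.5 to 3.89 in OPC, all called in OL only (all regions 61.4%). Usp6nl, matched by name only, had 6 regions, all called in OL only, led by 12.1 in OL against 1.25 in OPC.

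**Figure D5:**
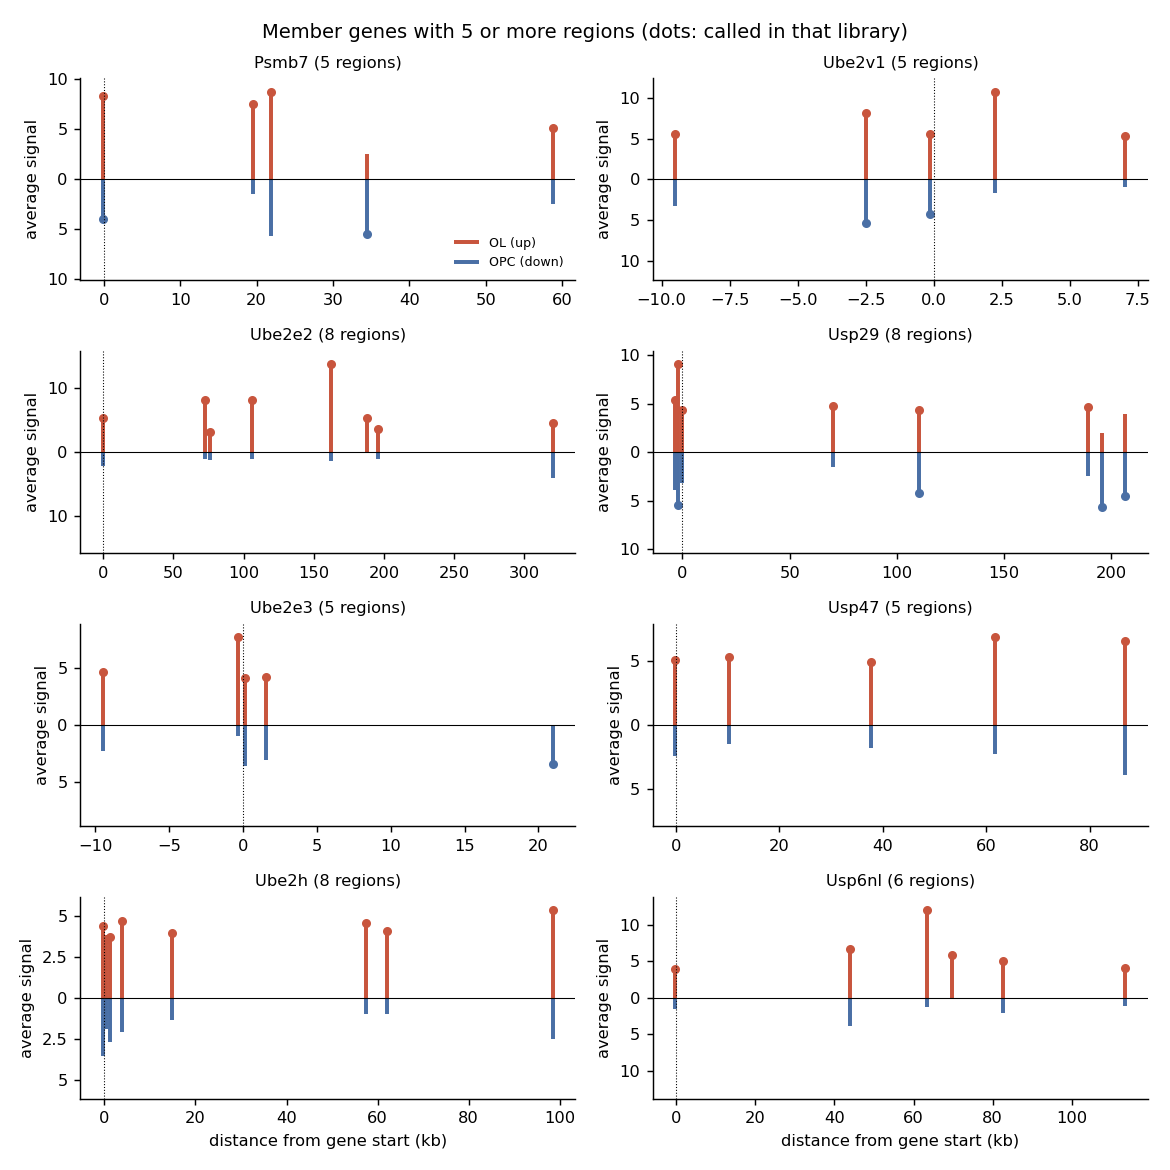
Average signal of each region of the 8 member genes with 5 or more regions, OL drawn upward and OPC downward, against distance from the gene start (kb); dots mark a call in that library and vertical scales differ between panels. Ube2e2, Ube2h, Usp47 and Usp6nl hold OL dots only, while Usp29 holds dots of both libraries.

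In all, 9 member regions (4.11%; all regions 6.04%) were listed at 0 in OPC, in Psmd14, Ube2d1, Ube2e2, Ube2q2, Usp19, Usp31, Usp37, Usp49 and Usp6nl, and 1 was listed at 0 in OL, in Ube2e3. No fold is given for them, and with the pseudocount they count as past the threshold. No member region was among the 100 highest of either library, and 5 were among the 1000 highest in OL and 4 among the 1000 highest in OPC.

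Other families with housekeeping promoters gave start values near those of the ubiquitin-proteasome genes. Counting any region within 1 kb of a gene start, the median ratio was 0.56 for the 107 member regions, 0.62 for cytosolic ribosomal protein genes and 0.57 for mitochondrial respiratory and ribosomal genes. Calls in both libraries were at 38.3% of those member regions, 40.2% of the ribosomal and 40.9% of the mitochondrial ones. Away from every start, the median was 0.97 for the 112 member regions, 0.55 for 32 ribosomal and 0.75 for 86 mitochondrial regions, beside 0.83 over all such regions. Calls in both were at 10.7% of these member regions, 34.4% of the ribosomal and 18.6% of the mitochondrial ones, beside 21.8% of all regions of this kind with an assigned gene. A ratio of 1 or more was found at 49.1% of these member regions, beside 42.2% of all such regions. No test of these differences was possible.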

How the data were processed

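Nkx2.2 ChIP-seq was measured in 1 OL and 1 OPC library. The submitters' processing notes name BWA, MACS 1.4.2 and mm9, a mouse genome build. The authors joined the intervals called in each library into merged regions and deposited, per the file headers, the average and highest signal of each library, the calls, CpG island and promoter features, and the genes with their distance and position. How peaks were thresholded, how the input entered and how signal was scaled is not given in the sources used here, and depth is unknown. From the deposited signal, log2((OL + 1) / (OPC + 1)) was computed for every region, with no filter. Counts past a ratio of 1 or -1, calls and medians were set beside the same values over all regions of the same position. Share intervals (Clopper-Pearson) and median intervals (order statistics) are 95% intervals that cover the spread over regions and not between libraries or animals. A region assigned to several genes counts for each of them. Promoter motifs were searched on both strands of the RefSeq promoters (GRCm38.p6), matched by symbol.

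Regions named are those of every Psm gene, and for Ube2 and Usp the 5 highest in each library, the 5 largest and 5 smallest ratios, genes with 5 or more regions, and regions listed at 0. The values of 1 member gene that this rule names are not reported here singly, and the counts include it. Other start regions named were chosen after their values were seen. The members and the gene lists were chosen with earlier results of these data known. Scripts were tested on simulated data. Python 3.11.15, pandas 2.3.3, numpy 2.4.6, scipy 1.17.1 and matplotlib 3.10.9 were used. Alternatives were other pseudocounts, other centrings, highest signal, stricter calls, other start windows and other choices of regions.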

Additional observations from a re-analysis of the deposited data

How the results depend on the processing

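With 1 library per state, no replicate could be left out. No paired analysis was possible because each state has 1 library. The count of regions with a ratio of 1 or more (68) was 111 with the highest signal in place of the average, 23 with the median of all regions set to 0, 29 of the 103 regions above the median mean signal, and 29 of 101 with 1 region per gene. The count at -1 or less (6) was 12 with the highest signal, 21 with the median of all regions set to 0, 3 with a pseudocount of 2, 1 above the median mean signal, 3 with regions assigned to members only, and 1 with 1 region per gene. Over all regions, the shares at 1 or more and at -1 or less were 52.2% and 10.8% with the highest signal. They were 13.2% and 17.5% with the median of all regions set to 0. With a pseudocount of 2, 4.59% of all regions were at -1 or less. The median ratio (0.69) was 0.57 with a pseudocount of 2, 0.44 with the median of regions called in both set to 0, 1.0 with the highest signal and 0.86 with regions of members only. With the median of all regions set to 0 it was -0.05. By role it was then -0.05 for the 20S core, -0.27 for Psmc and Psmd genes with Psmc3ip, -0.04 for E2 and 0.08 for Usp genes. With the median of regions called in both set to 0 it was 0.22 for Psmc and Psmd genes, 0.45 for E2 and 0.57 for Usp genes. With the highest signal it was 1.03 for the 20S core, 1.0 for E2 and 1.0 for Usp genes. Usp genes had 1.08 with regions of members only and 0.64 with 1 region per gene.

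Calls kept only at or above the median signal of that library's calls (5.46 in OL, 5.12 in OPC) gave 66 in OL only, 21 in both and 8 in OPC only, and 11 start regions in both. Regions of members only gave 90 in OL only, 22 in both and 8 in OPC only. The in-gene minus start difference of the medians (0.53) was 0.95 with the highest signal. The start count (75) was 129 by the authors' promoter feature. CpG islands overlapped 45.7% of member regions and 69.8% of those called in both. The NK2 core share (39.1%) was 7.25% for CAAGTG. The cause of these changes was not tested. The role medians without the 3 genes matched by name only, the stricter start calls and the in-gene difference were chosen after seeing the data. Scaling between libraries and unknown depth limit all ratios.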

Other observations

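Genes that work beside the proteasome, E2 and Usp families were counted from lists of other ubiquitin pathway genes. Of 9 E1 activating enzymes 6 had a region, and all 6 had an OL call while 1 had an OPC call. Atg7, the E1-like enzyme of autophagy, had 31.0 in OL against 21.5 in OPC, and Sae1, a subunit of the SUMO E1, had 17.8 in OL against 2.00 in OPC. The list's 18 regions had a median ratio of 0.57, with 4 past the threshold toward OL and 1 toward OPC. Of 16 proteasome activators, inhibitors and assembly factors 9 had a region, with 9 called in OL and 6 in OPC. All 13 regions of that list had higher signal in OL (all regions 77.4%), with a median ratio of 0.85 and 4 past the threshold toward OL. Psmf1, a proteasome inhibitor, had 10.1 in OL against 9.58 in OPC, and Nfe2l1, an Nrf factor that drives proteasome genes, had 7.90 in OL against 3.89 in OPC.

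Among ligases, 20 of 25 HECT genes had a region, with 19 called in OL and 14 in OPC, a median ratio of 0.75 over 66 regions, and 23 regions past the threshold toward OL and 4 toward OPC. Smurf1, which limits BMP signalling, had 42.5 in OL against 23.1 in OPC, above every member region, and Hectd2 had 11.4 in OL against 22.1 in OPC. Of 30 cullin-RING genes 28 had a region, with 28 called in OL and 17 in OPC, a median of 0.79 over 61 regions, and 21 past the threshold toward OL and 1 toward OPC. Of 29 deubiquitinases of other families 20 had a region, with 20 called in OL and 11 in OPC, a median of 0.58 over 48 regions, and 8 past the threshold toward OL and 1 toward OPC. Josd1 had 19.1 in OL against 10.8 in OPC, and Uchl1, abundant in neurons, had 3.88 in OL against 6.38 in OPC. Of 13 ubiquitin and ubiquitin-like genes 11 had a region, with 11 called in OL and 9 in OPC, a median of 0.66 over 28 regions, and 10 past the threshold toward OL and 4 toward OPC. The same shares over all regions are 37.5% toward OL and 7.03% toward OPC. Over all genes with a region, 94.8% had an OL call and 57.3% an OPC call.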
